A study of Caenorhabditis elegans with 18 samples.

Results

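The subject of this section is 6 genes of Caenorhabditis elegans that have little or no described function and whose transcripts rose steeply in heat-shocked larvae: R107.5, Y43F8B.2, R11A5.3, ZC21.10, C25F9.2 and F53A9.2, which is named kreg-1. They were chosen by their identifiers for a rise of more than 30-fold in heat shock, and they are 6 of 20389 genes in the deposited table and 6 of 14219 genes tested. All 6 passed the filter on low counts. The rise itself chose them, so it is described here without a test, and the tests concern differences between strains.

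The libraries hold polyadenylated RNA of whole larvae in the second larval stage, grown at 20 °C from synchronised eggs on plates with OP50 bacteria. Per the labels there were 3 strains, 2 temperatures and 3 libraries in each of the 6 groups. The wild type was N2. The second strain, PS3551, carries hsf-1(sy441), an allele known to remove the end of the heat shock factor and part of its activation domain. The third strain, AM1062, carries hsf-1(sy441) on chromosome I and unc-119(ed9) on III, and has an inserted hsf-1::gfp transgene, rmSi1, on II. It is called the hsf-1::gfp strain here, and it differs from hsf-1(sy441) by the unc-119 allele as well as by the transgene. Heat-shocked animals spent 30 min at 34 °C on sealed plates in a water bath, and the others were collected directly. Whether the 3 libraries of a group were grown as separate cultures is not said in the labels. The p-values therefore speak of library-to-library spread, which may be technical. All levels are from whole animals, where fewer cells of a type and less RNA per cell cannot be told apart.

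HSF-1 is the single heat shock factor of C. elegans. In heat shock it binds heat shock elements and drives transcription of chaperone genes such as those of the Hsp70 and small heat shock protein families, and it has further targets in larval development without stress. A separate stress pathway of the worm runs through the JNK-like kinase KGB-1 and the transcription factor FOS-1. kreg-1 is named as a gene regulated by KGB-1 and is known from work on resistance to heavy metals. For the other 5 genes no function is stated here, since none is given in the sources used.

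In the genome build ce10, R107.5 lies on chromosome III from 9051514 to 9053708 and R11A5.3 on chromosome I from 7862837 to 7863548. ZC21.10 lies on chromosome III from 8529146 to 8531056, and kreg-1 on chromosome X from 8709653 to 8710105. C25F9.2 lies on chromosome V from 19421442 to 19426745. Y43F8B.2 is also on chromosome V, but its deposited locus, from 19503082 to 19533080, merges 4 genes, so its counts are uncertain where these genes share reads. All 6 are annotated as protein-coding. By the WBcel235 annotation, which was used for gene structure alone, kreg-1 has 1 exon and codes for 83 amino acids. R11A5.3 and ZC21.10 have 2 exons each and code for 155 and 165 amino acids. R107.5 has 2 annotated transcripts of 272 and 274 amino acids, and Y43F8B.2 has 6, from 139 to 317 amino acids. C25F9.2 is the longest, with 15 exons and 1523 amino acids.

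The depth was 16 to 35 M fragments per library. Levels are given as CPM, fragment counts scaled for library size and composition. The gene hsf-1 (Y53C10A.12) had mean levels at 34 °C of 33.6 CPM in N2, 91.9 CPM in hsf-1(sy441) and 103 CPM in the hsf-1::gfp strain. Since sy441 is a stop allele, this level does not check its label. In the hsf-1::gfp strain, which carries unc-119(ed9), unc-119 was at 2.96 and 2.27 CPM, against 12.4 to 19.4 CPM in the other 4 groups. Markers of neurons, muscle, intestine, hypodermis and germ line were present in every group. Yolk genes, which mark the adult intestine, stood apart in 1 library: vit-2 and vit-6 summed to 42.8 CPM in N2 replicate 3 at 34 °C and to at most 4.63 CPM in each of the others. Libraries within a group, and the strains, differed along the cuticle collagens dpy-7, rol-6 and sqt-3, hypodermal markers that follow the moult. Their summed level spanned 1730 to 7440 CPM in N2 at 34 °C, 428 to 2430 in hsf-1(sy441) and 1220 to 5790 in the hsf-1::gfp strain. At 20 °C it spanned 1470 to 6000, 247 to 895 and 1010 to 3440 CPM in the same order. Every hsf-1(sy441) library thus lay below those of both other strains at 20 °C. In every group, replicate 3 had the lowest summed level, so this difference between libraries went with the replicate number. In N2 at 34 °C, 96 of 8147 genes with at least 10 CPM were 3-fold or more above both other libraries in replicate 2, 87 were so in replicate 3, and 0 in replicate 1. The part of these differences in the results below was not tested. Scaling by total fragments alone shifted the all-gene median of the log2 fold change by −0.27 in heat shock of N2, −0.34 in hsf-1(sy441) and −0.28 in the hsf-1::gfp strain. The same scaling shifted it by 0.13 between the mutant and N2 at 34 °C, and by 0.20 against N2 and 0.11 against the hsf-1::gfp strain at 20 °C.

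In N2 the 6 genes fell into a pair that was already well expressed at 20 °C and 4 that were near the detection limit before heat. R107.5 read 27.1, 25.6 and 40.0 CPM in the N2 libraries at 20 °C and 3770, 2910 and 3120 CPM at 34 °C. Y43F8B.2 read 37.6, 40.7 and 59.4 CPM at 20 °C and 1400, 2060 and 1290 CPM at 34 °C. Each of these 2 genes had at least 647 fragments in every N2 library at 20 °C, so the base of the rise was well counted. By length-corrected level they ranked 82 (R107.5, 3740 ± 485 FPKM, SD, n = 3) and 96 (Y43F8B.2, 2700 ± 619 FPKM) among 20275 genes in heat-shocked N2, from rank 3598 and 1997 at 20 °C.

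The other 4 started from 4 to 19 fragments per N2 library. R11A5.3 had 4, 10 and 13 fragments at 20 °C (0.167, 0.364 and 0.643 CPM) and 6753, 12064 and 4878 fragments at 34 °C (471, 617 and 326 CPM). ZC21.10 read 0.335, 0.219 and 0.841 CPM at 20 °C and 155, 91.9 and 186 CPM at 34 °C. For these the ratio rests on a base of few fragments: the 34 °C to 20 °C ratio of same-numbered libraries reached 2810 for R11A5.3 and ran from 221 to 461 for ZC21.10. C25F9.2 read 0.377, 0.255 and 0.445 CPM at 20 °C and 9.69, 65.7 and 12 CPM at 34 °C. kreg-1 read 0.293, 0.692 and 0.247 CPM at 20 °C and 13.3, 14 and 27.7 CPM at 34 °C. No N2 library at 34 °C overlapped those at 20 °C for any of the 6 genes, but this rise is what chose them. By FPKM in heat-shocked N2, R11A5.3 ranked 188, ZC21.10 487, kreg-1 2225 and C25F9.2 8724, so on this per-length scale C25F9.2 was a weakly expressed gene even after its rise.

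**Figure D1:**
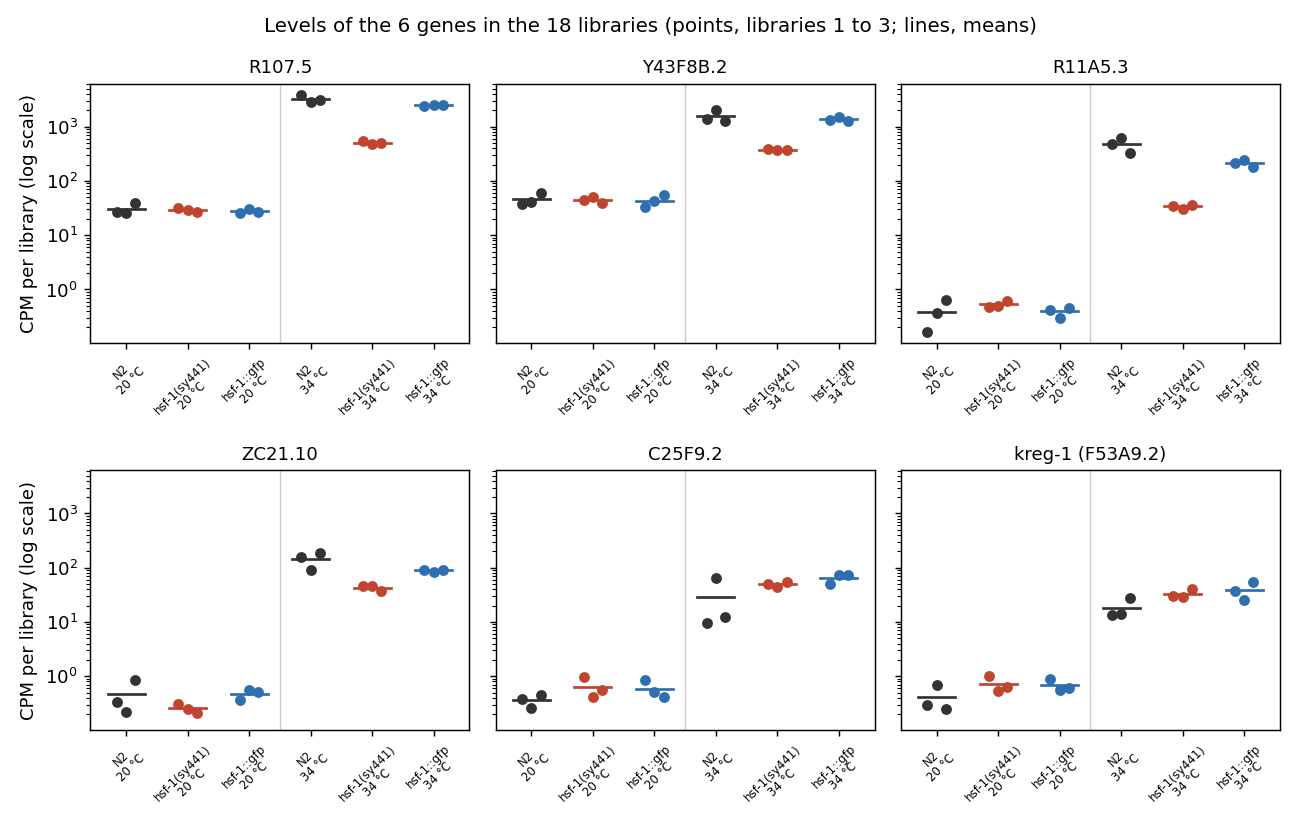
CPM of the 6 genes in each of the 18 libraries on a logarithmic axis, with the 3 strains at 20 °C to the left and at 34 °C to the right of each panel; points are libraries and lines are group means. At 20 °C the group means of R107.5 and Y43F8B.2 lie between 27.6 and 45.9 CPM and those of the other 4 genes below 1 CPM, and C25F9.2 in heat-shocked N2 has 1 library at 65.7 CPM beside 9.69 and 12 CPM.

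As ratios of mean CPM, the rise in N2 was 1200-fold for R11A5.3, 310-fold for ZC21.10, 106-fold for R107.5, 81.4-fold for C25F9.2, 44.5-fold for kreg-1 and 34.5-fold for Y43F8B.2. The ratio of C25F9.2 rests on N2 replicate 2 at 34 °C: without it the ratio was 30.6, and same-numbered libraries gave 25.7 to 258. Leaving out 1 N2 library at 20 °C raised ZC21.10 to 521-fold (without replicate 3) and kreg-1 to 67.7-fold (without replicate 2). Y43F8B.2 was at 29.3-fold without N2 replicate 2 at 34 °C. Of all genes tested, 0.633% rose over 30-fold in N2, which was 90 genes, and 13 of these reached 10 CPM. One of the 13 was the yolk protein gene vit-2, with 0 fragments in N2 at 20 °C and 0.767, 0.819 and 29.0 CPM at 34 °C. Among genes that reached 10 CPM at 34 °C and had any fragment at 20 °C, 12 rose more than 30-fold, and the 6 genes took ranks 4 to 8 and 10 in that list. The ranks above them were held by hsp-16.41, hsp-16.2 and hsp-70. The 114 genes with a failed estimate are missing from this ranking and from all counts of genes over 30-fold. Some of them are inducible heat shock protein genes, for example F44E5.5 and hsp-16.11. Where these would rank is unknown, so the ranks of the 6 genes hold among measured genes only. Just inside the threshold lay the cuticle collagen gene dpy-17 with 33.7-fold and nurf-1, which codes for a subunit of an ISWI chromatin remodelling complex, with 30.3-fold. Just outside it were Y38H6C.8 with 27.2-fold and bath-34 with 26.3-fold. The gene at rank 9, srt-42 (Y46H3A.1), is annotated as a serpentine receptor and is named here after its values were seen; its ratio was 40.8.

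Between the strains the threshold held differently. In the hsf-1::gfp strain all 6 genes rose over 30-fold, where 0.492% of all genes did; Y43F8B.2, at 31.3-fold, fell below it to 28.1 without replicate 1 at 20 °C and to 29.7 without replicate 2 at 34 °C. In hsf-1(sy441), where 0.352% of all genes did, 4 of the 6 passed it, and Y43F8B.2 with 8.45-fold and R107.5 with 17.4-fold did not. R11A5.3, whose rise was the steepest of the 6 in N2, was at 64.3-fold in hsf-1(sy441). These ratios describe the contrast that chose the genes.

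The first question for which the strains serve is how far the heat-shocked level depended on an intact hsf-1. At 34 °C, 4 of the 6 genes were lower in hsf-1(sy441) than in N2 by edgeR's quasi-likelihood test at an adjusted p below 0.05: R11A5.3, R107.5, Y43F8B.2 and ZC21.10. The other 2 genes, C25F9.2 and kreg-1, had higher means in the mutant, and neither difference passed. Over all genes 29.0% were called in this comparison and 14.2% were called lower. With the replicate number as a block 5 of the 6 were called, kreg-1 as higher. The genes were chosen for a high level in heat shock, and the N2 libraries at 34 °C enter both that choice and this comparison.

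R11A5.3 read 34.8, 30.6 and 36.6 CPM in heat-shocked hsf-1(sy441), against 326 to 617 CPM in N2. The groups were far apart and the mutant mean was 7.22% of that in N2. The log2 difference was −3.79 ± 0.26 (SE), with an adjusted p of 2.9e-07 and a 95% interval from −4.36 to −3.23.

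R107.5 read 543, 484 and 497 CPM in the mutant, where its lowest N2 library had 2910 CPM. The mutant mean was 15.5% of N2, a log2 difference of −2.69 ± 0.15 (adjusted p = 2e-08). For Y43F8B.2 the mutant libraries stood at 384, 376 and 368 CPM, which was 23.7% of the N2 mean. This spread of 2.11% of the mean between mutant libraries compares with 26.5% between the N2 libraries. The log2 difference of Y43F8B.2 was −2.07 ± 0.21 (adjusted p = 1.5e-05).

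ZC21.10 read 46.3, 45.1 and 37.2 CPM in the mutant, all below the lowest N2 library at 91.9 CPM. Its mutant mean was 29.7% of N2, and the log2 difference was −1.75 ± 0.27 (adjusted p = 0.0005). The 4 lower genes were those whose mutant libraries all lay below every N2 library, as did those of 17.4% of all genes tested. Without any 1 of the 6 libraries compared, all 4 kept their call.

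The comparison of hsf-1(sy441) with the hsf-1::gfp strain, which carries the same allele and the transgene, uses no N2 library. It is not free of the choice of genes, since the rise in the hsf-1::gfp strain also belongs to the contrast that chose them. The same 4 genes were lower in hsf-1(sy441), where 9.14% of all genes were called and 3.90% were called lower. With the replicate block 3178 genes were called in place of 1299. This comparison shares its hsf-1(sy441) libraries with the one against N2, so the values are given side by side and not as independent results.

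In the heat-shocked hsf-1::gfp strain R11A5.3 read 214, 247 and 180 CPM, well above the mutant and below all N2 libraries. The mutant was at 15.9% of this mean, a log2 difference of −2.65 ± 0.25 (adjusted p = 1.2e-05). R107.5 read 2450, 2490 and 2550 CPM, and the mutant was at 20.4% of that with a log2 difference of −2.30 ± 0.15 (adjusted p = 1.6e-07). Y43F8B.2 read 1320, 1500 and 1270 CPM, and the mutant was at 27.6% with a log2 difference of −1.86 ± 0.21 (adjusted p = 6.5e-05). The hsf-1::gfp libraries of Y43F8B.2 overlapped those of N2, with 1 at 1270 CPM below the lowest N2 library at 1290 CPM, while all those of R107.5 lay below N2.

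ZC21.10 read 92.3, 82.5 and 91.8 CPM, and the mutant was at 48.2% of that mean without overlap, an order shown by 10.9% of all genes tested. Its log2 difference was −1.05 ± 0.26 (adjusted p = 0.022), the smallest of the 4. That call was lost without any 1 of the 3 hsf-1(sy441) libraries (adjusted p 0.06, 0.057 and 0.092) or without hsf-1::gfp replicate 1 or 2 (0.072 and 0.052). It was also lost on log2(FPKM + 0.1) with limma (0.13).

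**Figure D2:**
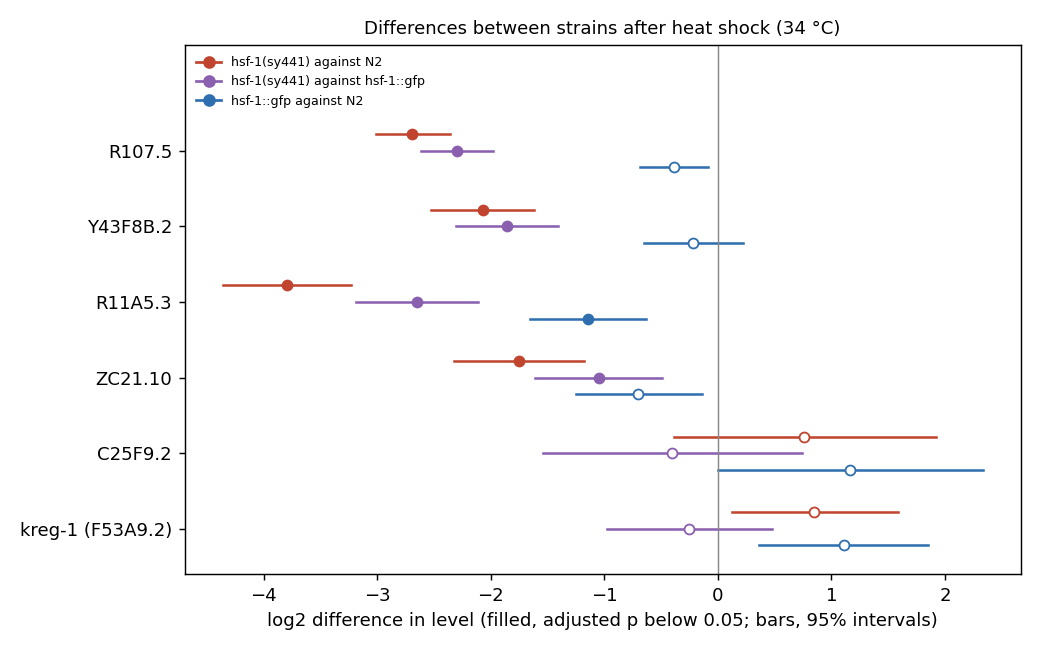
Log2 differences in level between strains at 34 °C for the 6 genes from edgeR's quasi-likelihood fit, with 95% intervals; filled points passed an adjusted p of 0.05. The differences of hsf-1(sy441) from N2 run from −3.79 for R11A5.3 to 0.85 for kreg-1, and those of the hsf-1::gfp strain from N2 lie between −1.14 and 1.16.

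Measured against N2, the hsf-1::gfp strain reached 86.1% of the heat-shocked mean of Y43F8B.2, 76.4% of R107.5, 61.6% of ZC21.10 and 45.3% of R11A5.3. Of the 6 genes R11A5.3 alone was called lower, its libraries being below all of N2 as were those of 7.5% of all genes, with a log2 difference of −1.14 ± 0.24 (adjusted p = 0.02), where 2.71% of all genes were called. Under the replicate block 1202 genes in place of 386 were called, and 2 of the 6: R11A5.3 (adjusted p = 0.0075) and kreg-1, higher in the hsf-1::gfp strain (adjusted p = 0.026). The call of R11A5.3 was lost without N2 replicate 1 or 2 (adjusted p 0.066 and 0.064), without hsf-1::gfp replicate 1 or 3 (0.069 and 0.076), on log2(FPKM + 0.1) with limma (0.13), and when only these groups were fitted (0.33). For R107.5 the log2 difference was −0.39 with a 95% interval from −0.69 to −0.09 (adjusted p = 0.17), and for Y43F8B.2 it was −0.22, from −0.65 to 0.22 (adjusted p = 0.65). ZC21.10 differed by −0.70, from −1.25 to −0.14 (adjusted p = 0.18, and 0.041 with DESeq2).

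C25F9.2 and kreg-1 had another order of strains in heat shock, with N2 lowest. C25F9.2 read 50.6, 43.7 and 55.2 CPM in hsf-1(sy441) and 50, 73.3 and 74.2 CPM in the hsf-1::gfp strain, beside 9.69, 65.7 and 12 CPM in N2. Replicates 1 and 3 of N2 lay below every library of the other strains, and replicate 2 lay among them. The log2 difference of hsf-1(sy441) from N2 was 0.76, with a 95% interval from −0.39 to 1.92 (adjusted p = 0.29), and that of the hsf-1::gfp strain from N2 was 1.16, from 0.00 to 2.33 (adjusted p = 0.29). Without N2 replicate 2 these became 2.18 (adjusted p = 0.00032) and 2.58 (adjusted p = 0.00035). The summed hypodermal collagens in N2 at 34 °C were 5960, 7440 and 1730 CPM in replicates 1, 2 and 3. Whether the collagen level bears on that of C25F9.2 was not tested. At 20 °C the level of C25F9.2 in N2 replicate 2 was the lowest of the 3.

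kreg-1 read 30.0, 28.8 and 40.4 CPM in heat-shocked hsf-1(sy441) and 37, 25.9 and 55.3 CPM in the hsf-1::gfp strain. All 3 hsf-1(sy441) libraries were above the highest N2 library of 27.7 CPM by a small margin, an order shown by 3004 of 14219 genes, and the hsf-1::gfp libraries overlapped both. The log2 difference of hsf-1(sy441) from N2 was 0.85 ± 0.34, with a 95% interval from 0.12 to 1.59 (adjusted p = 0.076). N2 replicate 3, the highest N2 library for kreg-1, was also the library with the yolk gene level of 42.8 CPM. The difference passed with DESeq2 (adjusted p = 0.04), with the replicate block (adjusted p = 0.017) and without N2 replicate 3 (1.28, adjusted p = 0.011). The hsf-1::gfp strain differed from N2 by 1.11 ± 0.35 (adjusted p = 0.11; 0.025 with DESeq2, and 0.021 without N2 replicate 3). Between hsf-1(sy441) and the hsf-1::gfp strain the differences were −0.40 for C25F9.2, with a 95% interval from −1.54 to 0.74, and −0.25 for kreg-1, from −0.98 to 0.48 (adjusted p = 0.67 for both). These intervals include both a fall and a rise, so they do not show equal levels.

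**Figure D3:**
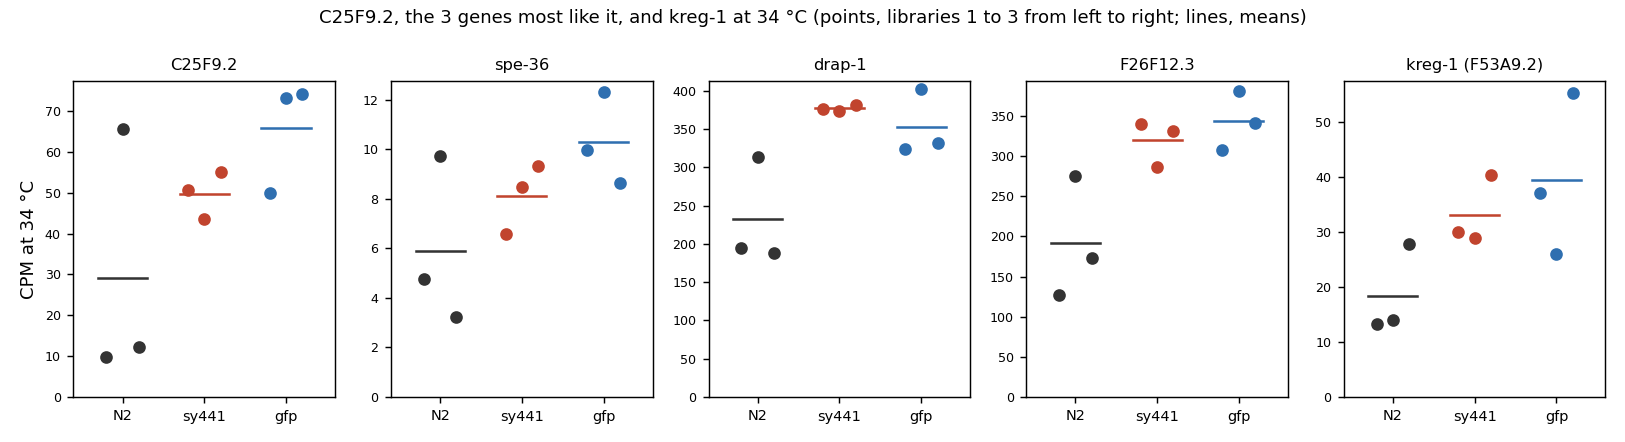
CPM at 34 °C in the 3 libraries of each strain for C25F9.2, for the 3 genes whose pattern over all libraries was most like it, and for kreg-1; points are libraries 1 to 3 from left to right and lines are means. In N2 the second library is the highest of its group for C25F9.2 (65.7 CPM), spe-36 (9.72 CPM), drap-1 (314 CPM) and F26F12.3 (275 CPM), while for kreg-1 the third is (27.7 CPM).

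The difference of the heat response between strains was tested as an interaction term, which shares its libraries with the contrasts that chose the genes. It was lower in hsf-1(sy441) than in N2 for 3 of the 6 genes, where 0.492% of all genes were called (70, and 454 with the replicate block) and 0.302% were called lower. R11A5.3 differed by −4.26 ± 0.45 on the log2 scale (adjusted p = 0.00014), R107.5 by −2.60 ± 0.20 (adjusted p = 4.3e-06) and Y43F8B.2 by −2.03 ± 0.29 (adjusted p = 0.0028). ZC21.10 was not called: its heat response differed by −0.98, with a 95% interval from −2.13 to 0.17 (adjusted p = 0.52), and its base at 20 °C was 7 to 11 fragments per mutant library. For C25F9.2 the difference was −0.11, from −2.08 to 1.86 (0.89 with limma on log2(FPKM + 0.1)), and for kreg-1 it was 0.08, from −1.34 to 1.5.

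Against the hsf-1::gfp strain the same 3 genes had a smaller heat response in hsf-1(sy441), where 0.197% of all genes were called (28, and 61 with the replicate block) and 0.183% were called lower. The differences were −3.08 ± 0.45 for R11A5.3 (adjusted p = 0.0057), −2.38 ± 0.20 for R107.5 (adjusted p = 1.8e-05) and −1.89 ± 0.29 for Y43F8B.2 (adjusted p = 0.0074). With the replicate block Y43F8B.2 was at an adjusted p of 0.058 and was no longer called. For ZC21.10 the difference was −0.17, from −1.40 to 1.07 (adjusted p = 1). Its log2 difference in level between these 2 strains was −1.05 at 34 °C and −0.88 at 20 °C, the latter not called. Between the hsf-1::gfp strain and N2, 0 of the 6 genes and 0 of all genes (0.0%) differed in heat response by edgeR, with 1 of the 6 and 610 of all genes at an unadjusted p below 0.05. DESeq2 called 0 of the 6 and 13 of all genes there.

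**Figure D4:**
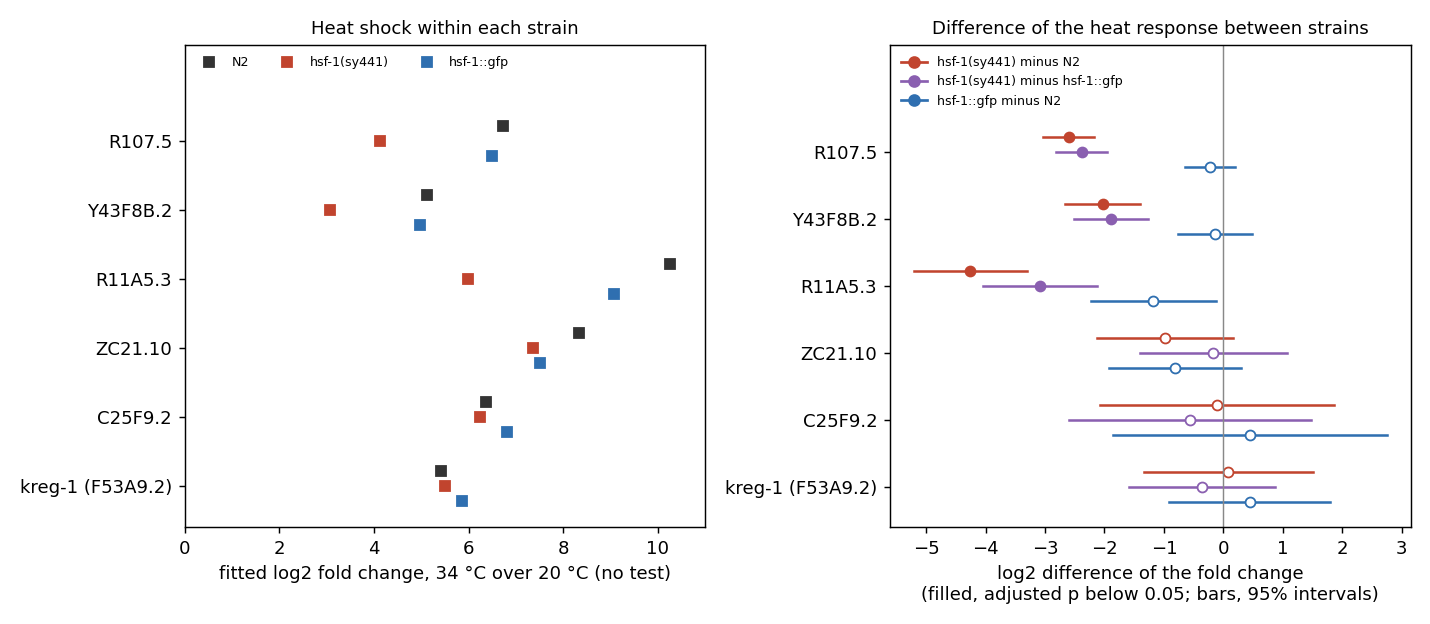
Left, fitted log2 fold changes of the 6 genes in heat shock within each strain, which describe the contrast that chose the genes; right, differences of that fold change between strains with 95% intervals, filled where the adjusted p was below 0.05. R11A5.3, R107.5 and Y43F8B.2 have a smaller fold change in hsf-1(sy441) than in either other strain, and the intervals of C25F9.2 and kreg-1 include 0 in all 3 differences.

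At 20 °C none of the 6 genes was called between any strains by edgeR, where 20.9% of all genes were called for hsf-1(sy441) against N2, 4.63% against the hsf-1::gfp strain and 1.33% for the hsf-1::gfp strain against N2. By edgeR 0 of the 6 had an unadjusted p below 0.05 in each of the 3 comparisons. DESeq2 also called 0, with 1 of the 6 at an unadjusted p below 0.05 against the hsf-1::gfp strain. R107.5 read 31.2, 29.4 and 26.9 CPM in hsf-1(sy441) and 26.2, 29.8 and 26.7 CPM in the hsf-1::gfp strain, overlapping with N2. Its log2 difference of hsf-1(sy441) from N2 was −0.08, with a 95% interval from −0.39 to 0.22. Y43F8B.2 read 44.2, 50 and 39.3 CPM in hsf-1(sy441) and 33.6, 42.8 and 54.3 CPM in the hsf-1::gfp strain, with a log2 difference of −0.04 from N2, from −0.48 to 0.40. With total-fragment scaling these 2 differences changed sign to 0.10 and 0.14. The other 4 genes had means of 0.257 to 0.726 CPM in all 3 strains at 20 °C, and their intervals were wide: for R11A5.3 the ratio of hsf-1(sy441) to N2 was bounded by 0.788 and 2.42, and for C25F9.2 by 0.535 and 6.28. For ZC21.10 the log2 difference of hsf-1(sy441) was −0.77 from N2, with a 95% interval from −1.74 to 0.20 (adjusted p = 0.23). From the hsf-1::gfp strain it was −0.88, from −1.86 to 0.09 (adjusted p = 0.28).

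The genes beside the 6 were examined as well, by the nearest annotated gene on each side and the genes in the same deposited locus, of which 12 were measured. Genes on both sides of R107.5 and on one side of R11A5.3 rose in N2 and in the hsf-1::gfp strain and had a smaller heat response in hsf-1(sy441), and the other 9 neighbours had no called difference in heat response. ikke-1 (R107.4), named as a homologue of the kinase IKK epsilon, lies 896 bases from R107.5 on its downstream side and on the same strand. It read 36.4, 37.6 and 38.7 CPM in N2 at 20 °C and 156, 206 and 177 CPM at 34 °C, while hsf-1(sy441) went from 41.8 to 42.4 CPM to 57.0 to 61.7 CPM. Its heat response was lower in hsf-1(sy441) than in N2 by a log2 difference of −1.77 ± 0.12 (adjusted p = 1.7e-06) and than in the hsf-1::gfp strain by −1.53 ± 0.12 (adjusted p = 1.1e-05).

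cls-2 (R107.6), a microtubule-binding protein gene of the CLASP family, lies 1265 bases from R107.5 on its upstream side and on the other strand. In N2 it read 87.5, 86.2 and 84.1 CPM at 20 °C and 210, 295 and 245 CPM at 34 °C. In hsf-1(sy441) it read 89.9, 84.3 and 76.9 CPM and then 76.2, 88.0 and 74.6 CPM, with no called change in heat (adjusted p = 0.67). The heat responses differed by −1.61 ± 0.16 between these strains (adjusted p = 4.7e-05). nud-2 (R11A5.2), a gene of the nuclear distribution family, lies 3424 bases downstream of R11A5.3 on the same strand. It read 33.5, 36.9 and 38.8 CPM at 20 °C and 171, 221 and 177 CPM at 34 °C in N2, and 62.7, 65.8 and 75.8 CPM in heat-shocked hsf-1(sy441). Its heat response was lower in hsf-1(sy441) than in N2 by −1.69 ± 0.15 (adjusted p = 1.6e-05). The labels name a TruSeq kit and do not state whether reads were counted by strand, so reads from a gene and from overlapping or run-on transcripts of its neighbour cannot be told apart here.

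On the other side of R11A5.3, pck-2, a phosphoenolpyruvate carboxykinase gene, rose in each strain, with log2 fold changes of 0.47 in N2, 0.42 in hsf-1(sy441) and 0.49 in the hsf-1::gfp strain. The neighbours of ZC21.10 (idpp-15 and the channel gene trp-1), of C25F9.2 (C25F9.15 and the receptor gene srw-85) and of kreg-1 (F53A9.1, with F53A9.3 below the filter) had log2 fold changes between −0.21 and 0.73 in heat shock of N2. Of these F53A9.1 alone was called, at 0.42 (adjusted p = 0.032). In the locus of Y43F8B.2, the genes Y43F8B.3 and phy-4 had log2 fold changes of −1.22 and 0.04 in N2, neither of which was called, and Y43F8B.19 was below the filter. The adjacent Y43F8B.1 was at 0.21 in N2 (adjusted p = 0.33) and rose in hsf-1(sy441) by 0.78 (adjusted p = 0.0015). At 34 °C Y43F8B.1 was higher in hsf-1(sy441) than in N2 by 0.77 (adjusted p = 0.0032) and than in the hsf-1::gfp strain by 0.63 (adjusted p = 0.021), where Y43F8B.2 was lower. The merged phy-4, at 1.38 CPM in N2, was lower in hsf-1(sy441) than in N2 by −2.03 (adjusted p = 0.0087), and by −2.01 at 20 °C (0.011). srw-85 was higher by 1.83 (adjusted p = 0.006), and by 2.13 at 20 °C (0.0044). Of the 12 measured neighbours, 2 were called higher and 5 lower in hsf-1(sy441) than in N2 at 34 °C, against 14.8% and 14.2% of all genes. No rise was called for the 2 measured genes merged with Y43F8B.2.

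**Figure D5:**
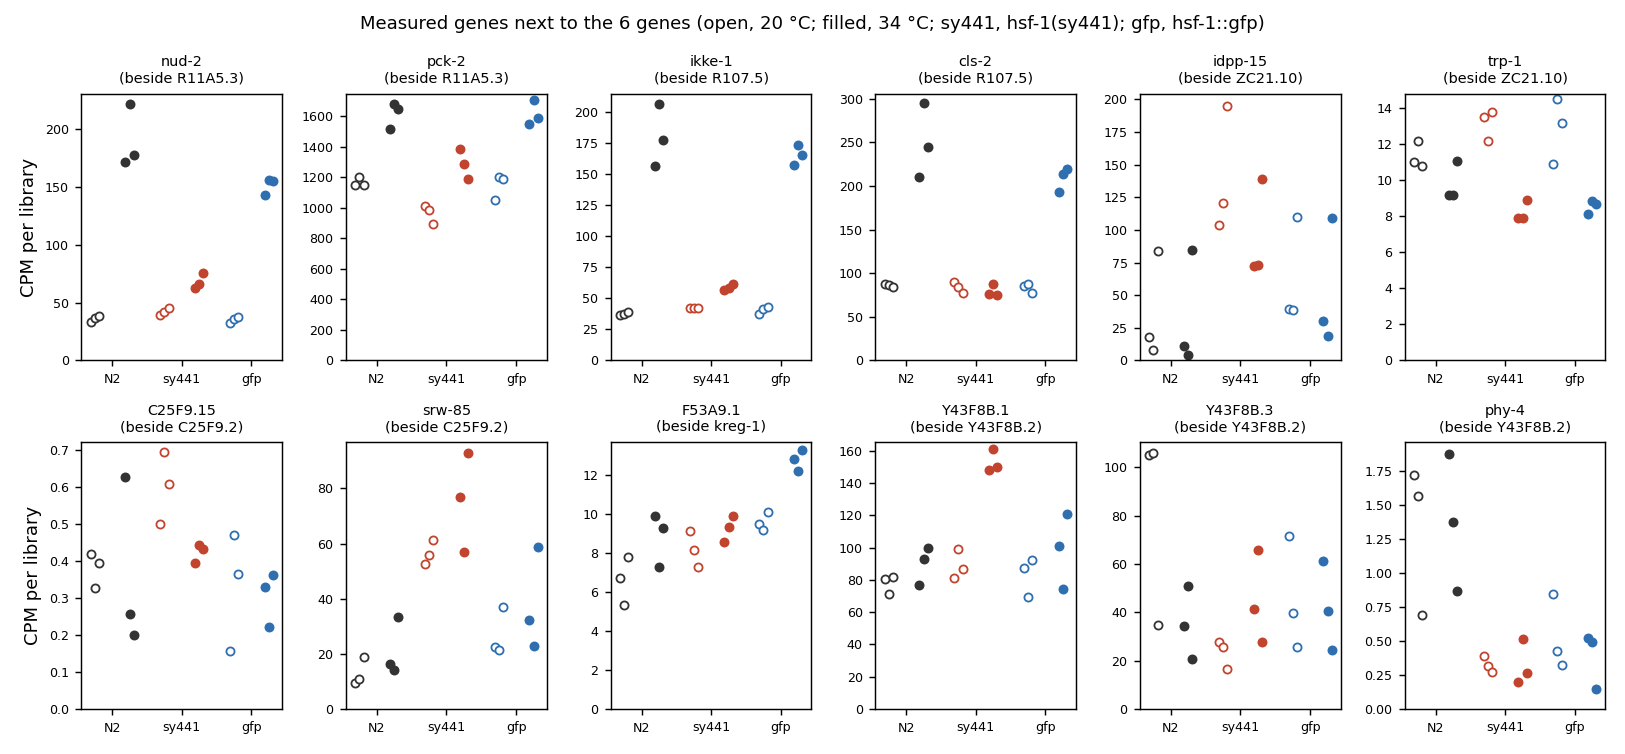
CPM per library of the 12 measured genes next to the 6 genes or merged into the same locus, with 20 °C as open and 34 °C as filled points for N2, hsf-1(sy441) and the hsf-1::gfp strain, each panel with its own linear axis from 0. nud-2, ikke-1 and cls-2 stand at 171 to 221, 156 to 206 and 210 to 295 CPM in heat-shocked N2 and at 62.7 to 75.8, 57.0 to 61.7 and 74.6 to 88.0 CPM in heat-shocked hsf-1(sy441).

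Over the 18 libraries the levels of the 6 genes on the log2(CPM + 1) scale went together, with Pearson correlations between pairs from 0.881 (R11A5.3 with C25F9.2) to 0.996 (R107.5 with R11A5.3 and with Y43F8B.2). C25F9.2 and kreg-1 had a correlation of 0.965 with each other. These values describe points that share the step from 20 to 34 °C and are not independent. For R107.5, R11A5.3 and Y43F8B.2 the gene with the most similar pattern was nurf-1 (0.997, 0.997 and 0.995), followed by hsp-70 (0.993, 0.995 and 0.992). nurf-1 went from 216 ± 13.2 to 6550 ± 1090 CPM in N2 and reached 1730 ± 298 CPM in hsf-1(sy441) and 4930 ± 587 CPM in the hsf-1::gfp strain at 34 °C. Next came unc-23, a gene of a BAG-family co-chaperone, for R107.5 (0.985) and R11A5.3 (0.982), and the small heat shock protein gene hsp-16.2 for Y43F8B.2 (0.987).

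The genes nearest in pattern to the remaining 3 were of other kinds. ZC21.10 was most like the ribosomal protein gene rps-7 (0.989), nurf-1 (0.987) and ubq-2 (0.987), which codes for ubiquitin fused to a ribosomal protein. C25F9.2 was most like spe-36 (0.988), drap-1 (0.987) and F26F12.3 (0.985). In heat-shocked N2, drap-1 read 194, 314 and 188 CPM, and hsf-1(sy441) was higher by a log2 difference of 0.70 ± 0.15 (adjusted p = 0.0051). F26F12.3 read 127, 275 and 173 CPM in N2 and was higher in hsf-1(sy441) by 0.74 ± 0.20 (adjusted p = 0.014) and in the hsf-1::gfp strain by 0.84 ± 0.20 (adjusted p = 0.034). The difference of drap-1 between the hsf-1::gfp strain and N2 was not called (0.60, adjusted p = 0.051). spe-36, the most similar gene, was called in neither comparison (0.46, adjusted p = 0.45, and 0.80, adjusted p = 0.39). All 3 were picked by likeness to C25F9.2 over these same libraries, so their differences are no support for its own. kreg-1 was most like M02B1.4 (0.987), the F-box gene fbxb-72 (0.984) and C13G3.1 (0.984). fbxb-72 went from 0.136 ± 0.0425 to 7.27 ± 1.6 CPM in N2 and stood at 9.16 ± 1.21 CPM in hsf-1(sy441) and 12.8 ± 3.11 CPM in the hsf-1::gfp strain.

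Beside these, 4 gene lists give the setting of the 6 genes in heat shock; they were drawn up with earlier results of these data known and are described by counts, where 38.4% of all genes were called in N2 (18.6% higher and 19.8% lower), 31.6% in hsf-1(sy441) and 34.1% in the hsf-1::gfp strain. Among inducible heat shock protein genes 4 of 9 could be measured, and these 4 rose in each strain, with a median log2 fold change of 11.83 in N2, where the median of all genes was 0.02. At 34 °C hsp-70, an inducible Hsp70, was at 1170 CPM in N2, 64.7 in hsf-1(sy441) and 674 in the hsf-1::gfp strain. Of the small heat shock proteins, hsp-16.2 (3210, 188 and 2330 CPM) and hsp-16.41 (3090, 236 and 2350 CPM) were ordered likewise, and hsp-16.48 was below 1 CPM in all groups. In hsf-1(sy441) at 34 °C 3 of these 4 were called lower than in N2, a comparison in which 14.2% of all genes were called lower and 14.8% higher. Of 18 chaperones and co-chaperones 10 were called higher in heat shock in each strain, and 8 were called in all 3 strains. In hsf-1(sy441) hsp-1 and dnj-13 were not called (adjusted p = 0.65 for both), while hsp-60 (0.0027) and cdc-37 (0.016) were. At 34 °C 10 of the 18 were lower and 1 higher in hsf-1(sy441) than in N2. Among the most abundant, hsp-90 was at 8880 CPM in N2 and 2920 CPM in hsf-1(sy441), hsp-110 at 5730 and 665 CPM, hsp-1 at 5180 and 3130 CPM, and hsp-3 at 2240 and 2160 CPM.

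Of 13 other genes of the KGB-1 JNK pathway and of the heavy metal response 11 were measured, and in N2 2 rose and 3 fell, with a median log2 fold change of −0.03. One of the 2 was the metallothionein gene mtl-1, named here after its values were seen, which read 0.293, 0.146 and 0.396 CPM at 20 °C and 1.26, 1.02 and 19.6 CPM at 34 °C, so that replicate 3 carried most of its mean. It was not called in hsf-1(sy441) (adjusted p = 0.15) or the hsf-1::gfp strain (adjusted p = 0.25). In hsf-1(sy441) 1 rose and 2 fell, and in the hsf-1::gfp strain 0 rose and 2 fell. The kinase gene kgb-1 was at 83.6 CPM at 20 °C and 89.9 CPM at 34 °C in N2 (adjusted p = 0.41), and jun-1 rose from 71.5 to 96.3 CPM (adjusted p = 0.013). The histone deacetylase gene hda-1 fell by 0.69 on the log2 scale to 61.9 CPM (adjusted p = 3.6e-05) and the phosphatase gene vhp-1 from 78.7 to 51.6 CPM (adjusted p = 0.014). Of 19 genes of the intracellular pathogen response, a programme of pals genes and a ubiquitin ligase that heat can also raise, 14 were measured, and in N2 1 rose and 1 fell. The skr-4 gene of a ubiquitin ligase subunit rose from 9.98 to 13.1 CPM (adjusted p = 0.017), while skr-3 was at 63.5 and 79.2 CPM, cul-6 at 6.12 and 5.57 CPM and pals-22 at 7.30 and 8.45 CPM without a call.

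The authors' deposited table of Cuffdiff tests gave the same directions at 34 °C, and more calls in the comparisons with N2. Between N2 and the hsf-1(sy441) mutant the authors' deposited table called all 6 genes, among them C25F9.2 as higher (log2 ratio 0.86, q = 0.047) and kreg-1 as higher (0.88, q = 0.015). For the hsf-1::gfp strain against N2 the authors' deposited table called 4: R11A5.3 lower (−1.16, q = 0.0014), ZC21.10 lower (−0.73, q = 0.019), C25F9.2 higher (1.21, q = 0.0038) and kreg-1 higher (1.10, q = 0.0014). The calls for C25F9.2 and kreg-1 in both comparisons, and for ZC21.10 in the latter, stand in the authors' deposited table and were not made by edgeR's fit on the same libraries. Between hsf-1(sy441) and the hsf-1::gfp strain at 34 °C, the authors' deposited table called R107.5, R11A5.3, Y43F8B.2 and ZC21.10, the same genes as edgeR. At 20 °C the authors' deposited table called none of the 6.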

How the data were processed

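RNA of 18 libraries was analysed from deposited tables. TopHat2, Cuffdiff and the build ce10 are named in the submitters' processing notes, while their versions and the annotation are not given in the sources used here. For every gene and library the deposited table gives, per the file headers, an expected count of fragments (unscaled) and an FPKM value scaled by the authors. The authors' test tables hold log2 ratios of FPKM with p-values and q-values. Replicates are numbered from 0 in the table of fragments and from 1 in the labels, and were matched in this order. Of the fragment values 92.43% were whole within 1e-06, and the rest were rounded, which changed no library total by more than 4e-05%. Of 20389 genes, 19879 (97.5%) were matched to names. The 114 genes with a failed estimate, with 6.11% to 7.75% of a library's fragments, were left out.

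Counts were fitted in R 4.3.3 with edgeR 4.0.16: filterByExpr (14219 genes), TMM factors from 0.85 to 1.24, and a robust quasi-likelihood model with 1 mean per group (biological coefficient of variation 25.3%). The 9 comparisons of strains were adjusted with the Benjamini-Hochberg method over all genes and called at 0.05; every adjusted p in the text is from this fit unless another tool is named. Heat shock itself was not tested for the 6 genes. Alternatives were RLE and total-fragment scaling, no filter, DESeq2 1.42.0, limma 3.58.1 on log2(FPKM + 0.1) and log2(FPKM + 1), the compared groups alone, a replicate block and each library left out. The steps were tested on simulated data. Promoter and protein sequences were not used here. Intervals cover 95% and come from the fit. PCR duplicates could not be removed, so counts are of fragments, not molecules.

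The replicate numbers were checked for pairing over 9419 genes. Deviations from group means of same-numbered libraries had correlations of 0.34 to 0.90 between temperatures within each strain and 0.33 to 0.85 between strains at 34 °C. Those of different-numbered libraries ran from −0.86 to 0.74 and from −0.86 to 0.54, so the numbers do not establish pairing. The replicate 3 libraries did go together: their correlations ran from 0.33 to 0.90 over all pairs of groups, and each had the lowest collagen sum of its group. Pairing by number was used in the replicate block alone. The main fit has no term for it, so a difference shared by libraries of the same number is part of its spread.

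The 6 genes and all lists were chosen with earlier results of these data known. Named genes are the 6, hsf-1, unc-119, the 3 genes most correlated with each of the 6, neighbours, up to 4 abundant genes per list and the 2 on each side of 30-fold among genes with 10 CPM.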

Additional observations from a re-analysis of the deposited data

Results flagged for a closer look

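For 3 genes the test of the difference in heat response between strains passed at an adjusted p below 0.05. This test shares its libraries with the heat shock contrasts that chose the genes. The rise of R11A5.3 was lower in hsf-1(sy441) than in N2 by −4.26 on the log2 scale (adjusted p = 0.00014 by edgeR's quasi-likelihood test) and than in the hsf-1::gfp strain by −3.08 (adjusted p = 0.0057). For R107.5 the same differences were −2.60 (adjusted p = 4.3e-06) and −2.38 (adjusted p = 1.8e-05). For Y43F8B.2 they were −2.03 (adjusted p = 0.0028) and −1.89 (adjusted p = 0.0074), the latter at 0.058 with the replicate block. All 3 libraries of hsf-1(sy441) at 34 °C lay below all 3 libraries of either other strain for each of these genes. Of all genes tested, 17.4% had this order against N2 and 10.9% against the hsf-1::gfp strain. Groups of 3 were not tested for single outlying libraries.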

How the results depend on the processing

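Of 860 recomputed differences between strains for single genes, 795 kept their direction and their side of the threshold, 13 lost a call, 9 gained one and 43 changed sign, none of which was a called value; of 252 recomputed heat shock fold changes 17 moved by more than the spread between replicates, 10 of them with limma, whose pseudocount lowers the change of low genes (C25F9.2 in N2 from 6.36 to 2.36), 5 with total-fragment scaling and 2 with a library left out. Of the 6 genes, 1 was called between the hsf-1::gfp strain and N2 at 34 °C, against 3 with DESeq2, 0 with limma on log2(FPKM + 0.1), 0 with the compared groups alone and 0 to 2 with 1 library left out; without N2 replicate 2 the called gene was C25F9.2 in place of R11A5.3. The causes were not tested. The 4 genes near 4 to 36 fragments per library at 20 °C limit every difference that uses that temperature.

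With the replicate block 2 of the 6 were called in that comparison. The block, whose pairing did not hold between hsf-1(sy441) and the other strains at 20 °C, changed the count of all genes called at 34 °C from 1299 to 3178 (hsf-1(sy441) against the hsf-1::gfp strain) and from 386 to 1202 (the hsf-1::gfp strain against N2). At 20 °C it changed the count from 2969 to 5181 (hsf-1(sy441) against N2), from 659 to 2715 (against the hsf-1::gfp strain) and from 189 to 642 (the hsf-1::gfp strain against N2). For the heat response it changed 70 to 454 and 28 to 61. Beside kreg-1 and Y43F8B.2, named above, the block changed no call of the 6 genes.

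With DESeq2 the counts were 2239 and 924 at 34 °C and 1523 and 450 at 20 °C in the last 2 comparisons of each temperature, and 397, 69 and 13 for the heat responses of hsf-1(sy441) against N2, against the hsf-1::gfp strain and of the latter against N2. With limma and a pseudocount of 0.1 or 1 they were 788 (0.1 alone), 225 and 242 at 34 °C, and 1596 and 1567, 422 and 424, and 122 and 120 at 20 °C. With the compared groups alone they were 971, 274 and 23 at 34 °C, and 1169 and 78 in the last 2 at 20 °C. With 1 library left out they ran from 2319 to 5286, 623 to 1846 and 164 to 874 at 34 °C, from 878 to 3415, 328 to 519 and 101 to 156 at 20 °C, and from 39 to 156 (hsf-1(sy441) against N2) and 0 to 1 (the hsf-1::gfp strain against N2) for the heat response.

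Sign changes all concerned differences that were not called. At 20 °C, hsf-1(sy441) against N2 became 0.14 (total-fragment scaling) and 0.06 (limma, either pseudocount) for Y43F8B.2 and 0.10 and 0.02 for R107.5, and the hsf-1::gfp strain against N2 became 0.01 for Y43F8B.2 with total-fragment scaling. The heat response of C25F9.2 in hsf-1(sy441) against N2 became 0.89 and 1.03 with limma. With 1 library left out, hsf-1(sy441) against N2 at 20 °C ran from −0.13 to 0.18 (Y43F8B.2) and −0.20 to 0.15 (R107.5), and against the hsf-1::gfp strain from −0.24 to 0.48 (C25F9.2), −0.16 to 0.34 (kreg-1) and −0.12 to 0.25 (Y43F8B.2). The hsf-1::gfp strain against N2 at 20 °C ran from −0.33 to 0.52 (R11A5.3), −0.25 to 0.80 (ZC21.10), −0.27 to 0.15 (Y43F8B.2) and −0.28 to 0.06 (R107.5). At 34 °C kreg-1 ran from −0.48 to 0.07 between hsf-1(sy441) and the hsf-1::gfp strain, and Y43F8B.2 from −0.35 to 0.02 between the hsf-1::gfp strain and N2. The heat response in hsf-1(sy441) against N2 ran from −0.52 to 1.30 (C25F9.2) and −0.55 to 0.51 (kreg-1), and in the hsf-1::gfp strain against N2 from −0.19 to 0.87 (kreg-1) and −0.37 to 0.09 (Y43F8B.2).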

Other observations

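The summed level of the 6 genes was 78.4 ± 20.1 CPM in N2, 75.9 ± 6.83 CPM in hsf-1(sy441) and 73.3 ± 10.3 CPM in the hsf-1::gfp strain at 20 °C (SD, n = 3). At 34 °C it was 5510 ± 481, 1040 ± 41.6 and 4270 ± 131 CPM. R107.5 and Y43F8B.2 made up 97.9% of the sum in N2 at 20 °C and 88.0% at 34 °C, and 84.7% in heat-shocked hsf-1(sy441). In heat-shocked N2 the libraries did not order the 6 genes alike: replicate 2 was the highest for R11A5.3, Y43F8B.2 and C25F9.2 and the lowest for ZC21.10 and R107.5, and replicate 3 was the highest for kreg-1. Among genes with 10 CPM at 34 °C in hsf-1(sy441), 10 rose over 30-fold, and 4 of the 6 were among them, beside hsp-16.41 (124-fold), hsp-16.2 (158-fold), dpy-17 (202-fold), hsp-70 (30.4-fold), fil-2 (55.8-fold) and grl-17 (62.1-fold), the last 2 named after their values were seen.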
